A study of Zea mays with 6 samples.

Results

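Among 45578 genes counted in very young maize ears, 28 were clearly lower in both libraries of an RHW1 overexpression line than in every library of wild type and of an RHW1 knockout. They were chosen by their measured values in CPM, the count of a gene scaled to 1000000 reads of its library. Each had a mean of at least 2 CPM in wild type. In each, the lowest of the 4 wild-type and knockout values was at least 1.8 times the highest overexpression value. The knockout mean also had to lie between 0.67 and 1.5 times the wild-type mean. Of 19658 genes at 2 CPM or more in wild type, 36 met the gap of 1.8 times, and 8 of these were left out by the limits on the knockout. All 28 passed the low-count filter of the tests described below.

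The series holds 6 RNA-seq libraries of ears up to 0.5 cm long: 2 of wild type (labelled WT), 2 of the knockout made with CRISPR (labelled crispr, named rhw1-1) and 2 of the overexpression line OE#1. The overexpression group is a single line, so an effect of RHW1 level and an effect of that line alone cannot be told apart; neither the promoter that drives the transgene nor the maize background is given in those sources that were used here. Whether the libraries of 1 genotype are separate plants is not stated in the labels, so p-values measure the spread between these libraries, which may be technical. Totals ranged from 21094445 to 23999698 reads per library. Levels of RHW1 itself, and markers of the ear, were not analysed here, because no source at hand links the table's identifiers to gene names.

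Husk leaves are modified leaves that wrap the maize ear, and the series title places RHW1 and ZCN4 in 1 pathway that sets their width. ZCN4 belongs to the family of TERMINAL FLOWER1, whose members are known for holding shoot and inflorescence meristems in an indeterminate state. The youngest ear carries the inflorescence meristem and its first axillary meristems. All 28 genes carry Zm00001d identifiers; 0 were among the 154 microRNA genes or the 1635 ENSRNA non-coding genes of the table. The reference table matched 0 of the 28 identifiers, so their functions are not given. Zm00001d identifiers end in a running gene number, and close numbers usually mark genes that lie close together on a chromosome.

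By the size of the difference the 28 genes fell into unequal bands. In 3 genes the overexpression line was at or near 0 reads. One gene was more than 6-fold lower than in wild type, 5 were 3- to 6-fold lower, and 19 were less than 3-fold lower, from 1.98-fold to 2.80-fold. The median of the 28 was 2.60-fold, which left 38.5% of the wild-type level. Since these values chose the genes, they are a description and carry no test. In bulk tissue, fewer cells of a type and less RNA per cell cannot be told apart.

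**Figure D1:**
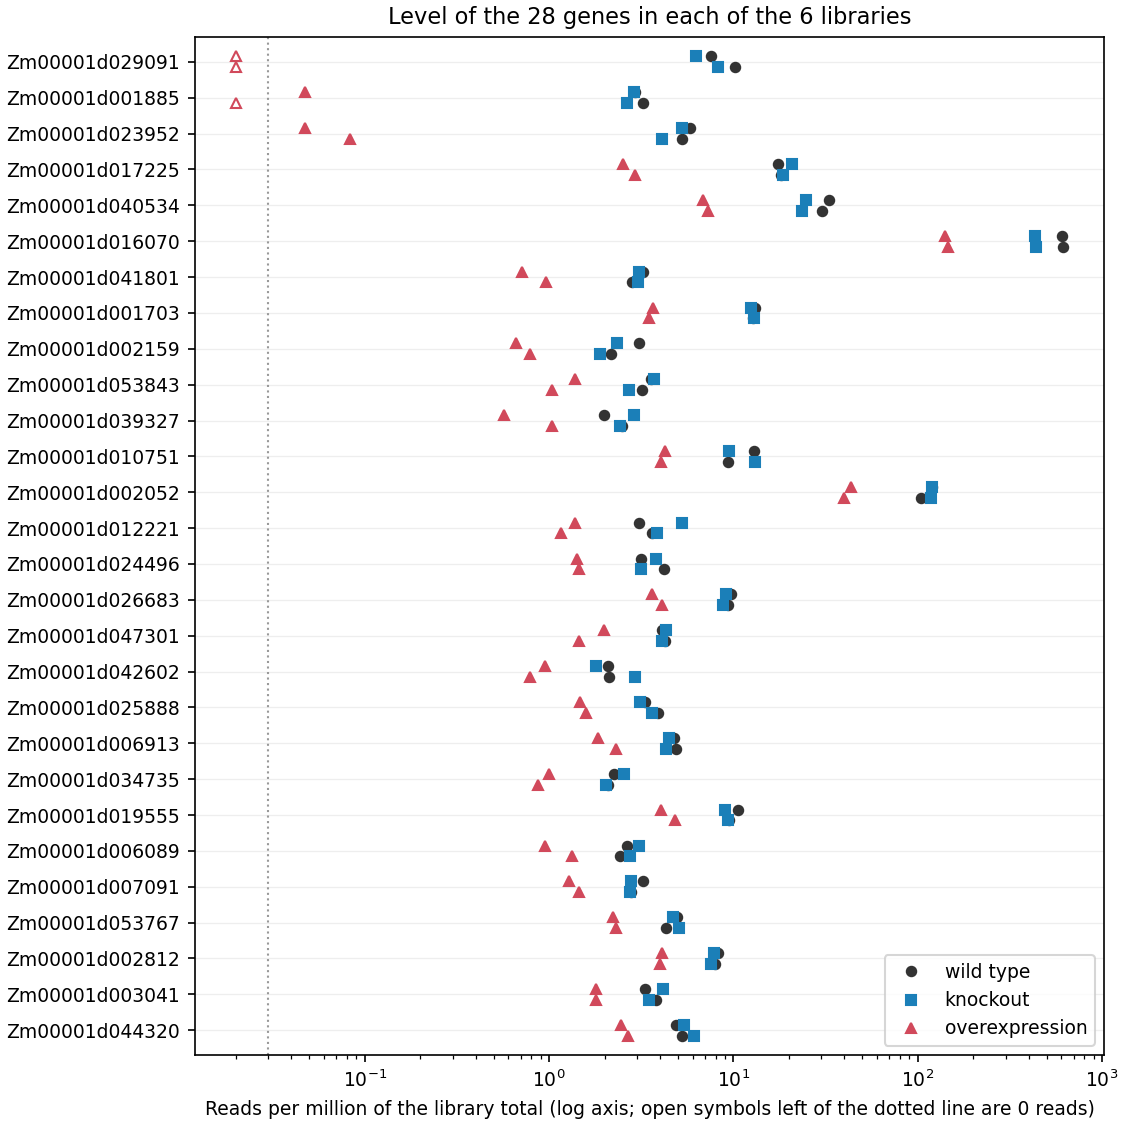
Level of each of the 28 genes in CPM (log axis) in every library, with 1 symbol per library and genes ordered by the share of the wild-type level left in overexpression. The 3 genes at the top were at or near 0 reads in overexpression, and Zm00001d016070 stood far to the right of the others at 604.5 and 613.5 CPM in wild type.

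Transcripts of 3 genes were nearly missing from overexpression. Zm00001d029091 had 175 and 230 reads in the wild-type libraries, 150 and 183 in the knockout and 0 in both overexpression libraries. The wild-type and knockout levels overlapped, and overexpression lay far below both. With 3 counts over both overexpression libraries taken as the floor, wild type was 133-fold and the knockout 109-fold above that floor. The lower exact 95% counting limits of the ratio to overexpression were 107.8 for wild type and 87.95 for the knockout.

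Zm00001d001885 was read 68 and 73 times in wild type, 69 and 59 times in the knockout, and 1 and 0 times in overexpression. From reads summed over both libraries of a genotype and scaled by their totals, wild type was 139 times overexpression. Exact 95% counting limits were 24.5 and 5529, and the knockout was 125 times overexpression (22.1 to 4991). Counts of Zm00001d023952 were 135 and 119 for wild type, 126 and 91 for the knockout, and 1 and 2 for overexpression. For this gene, in the same way, wild type was 83.5 times overexpression (28.2 to 407.5) and the knockout 70.9 times (23.9 to 346). Intervals cover counting error only, and the floor leaves out the counting error of the wild-type and knockout reads. The wide upper limits show that the sizes of these ratios are poorly known. All 3 genes were of modest level in wild type, at 8.87 ± 1.84, 3.08 ± 0.203 and 5.55 ± 0.408 CPM respectively (SD, n = 2).

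Next in size was Zm00001d017225, at 17.5 and 18.2 CPM in the wild-type libraries, 20.7 and 18.5 CPM in the knockout, and 2.51 and 2.92 CPM in overexpression. Overexpression thus held 15.2% of its wild-type mean, a level 6.57-fold lower. The wild-type and knockout ranges did not overlap, the knockout being slightly higher, and that difference did not pass the test across all genes.

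The most abundant of the 28, Zm00001d016070, stood at 604.5 and 613.5 CPM in the wild-type libraries, 432.0 and 437.8 CPM in the knockout, and 139.8 and 145.7 CPM in overexpression. The 3 genotypes did not overlap, and the knockout lay between the other two. Overexpression was 4.27-fold below wild type and 3.05-fold below the knockout. Zm00001d040534 had the same order of genotypes, at 32.9 and 30.4 CPM in the wild-type libraries, 24.7 and 23.7 CPM in the knockout, and 6.87 and 7.29 CPM in overexpression. Its overexpression mean was 4.47-fold below that of wild type and 3.41-fold below that of the knockout.

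In another 3 genes that were at least 3-fold lower, such a step in the knockout did not pass the test. Zm00001d001703 had 13.2 and 12.8 CPM in the wild-type libraries, 12.4 and 13.0 CPM in the knockout, and 3.65 and 3.50 CPM in overexpression. Zm00001d041801 had 3.24 and 2.83 CPM in the wild-type libraries, 3.06 and 3.02 CPM in the knockout, and 0.711 and 0.958 CPM in overexpression. Their overexpression means were 3.63-fold and 3.64-fold below wild type, respectively. In both genes the knockout and wild-type values overlapped. Zm00001d002159, at 3.07 and 2.17, 2.35 and 1.89, and 0.664 and 0.792 CPM in the same order of genotypes, was 3.60-fold below wild type.

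Among the 19 genes that were less than 3-fold lower, Zm00001d002052 was by far the most abundant. It had 118.8 and 104.2 CPM in the wild-type libraries, 119.2 and 118.2 CPM in the knockout, and 43.4 and 39.9 CPM in overexpression. Its overexpression mean was 2.68-fold below that of wild type. The others lay between 2.099 CPM (Zm00001d042602) and 11.1 CPM (Zm00001d010751) in wild type. Values of Zm00001d010751 spread widely within wild type and knockout, at 12.9 and 9.37 CPM and at 9.43 and 13.1 CPM, against 4.27 and 4.04 CPM in overexpression. Zm00001d026683 was steadier, at 9.69 and 9.33 CPM in the wild-type libraries, 9.14 and 8.80 CPM in the knockout, and 3.60 and 4.08 CPM in overexpression.

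Zm00001d019555 and Zm00001d002812, also among the 10 most abundant of the 28, were 2.26-fold and 2.01-fold lower than in wild type. Zm00001d019555 had 10.6 and 9.42 CPM in the wild-type libraries, 9.05 and 9.38 CPM in the knockout, and 4.03 and 4.83 CPM in overexpression. Zm00001d002812 had 191 and 180 reads in the wild-type libraries, 186 and 168 in those of the knockout, and 86 and 96 in those of overexpression. In both genes the knockout values lay slightly below those of wild type, a difference that did not pass the test. Zm00001d053843, at 3.59 and 3.18 CPM in the wild-type libraries, 3.69 and 2.71 CPM in the knockout, and 1.38 and 1.04 CPM in overexpression, was 2.80-fold lower and completed the 10 genes with the least transcript left.

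The other 13 were weakly expressed. Zm00001d039327, Zm00001d012221 and Zm00001d024496 were 2.77-, 2.63- and 2.55-fold lower than in wild type. Ratios of 2 to 2.5 were found for Zm00001d047301, Zm00001d042602, Zm00001d025888, Zm00001d006913, Zm00001d034735, Zm00001d006089, Zm00001d007091 and Zm00001d053767. The smallest ratios were 1.99 for Zm00001d003041 and 1.98 for Zm00001d044320. The overexpression libraries differed most in Zm00001d039327, where 12 and 25 reads gave 0.569 and 1.04 CPM, a ratio of 1.83 between replicates. In the 25 genes with at least 5 reads over both overexpression libraries, the median of that ratio was 1.14, and Zm00001d039327 was the only one above 1.5.

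Most of the 28 were of low abundance. Their median in wild type was 4.40 CPM, where the 19658 genes at 2 CPM or more had a median of 26.3 CPM; 16 of the 28 lay below 5 CPM, 9 between 5 and 20 CPM and 3 above 20 CPM. One gene dominated their sum. Together the 28 genes held 898 and 888 CPM in the wild-type libraries, 716 and 719 CPM in the knockout, and 234 and 239 CPM in overexpression. Zm00001d016070 alone gave 59.6% to 69.1% of that sum in each library. Without it the sums were 294 and 275 CPM in the wild-type libraries, 284 and 281 CPM in the knockout, and 94.6 and 93.6 CPM in overexpression. The difference in summed level between wild type and knockout thus came from Zm00001d016070, and the rest of the sum overlapped between these genotypes.

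In edgeR's fit of all tested genes, the log2 fold change of overexpression against wild type was -2.08 (SE 0.0289) for Zm00001d016070 and -1.41 (SE 0.0565) for Zm00001d002052. For Zm00001d042602, with 48 reads in each wild-type library, it was -1.25 (SE 0.37). All 28 genes were called lower than wild type by edgeR's quasi-likelihood test, where 13.9% of 22947 tested genes were, and all 28 were called lower than the knockout, where 12.6% of tested genes were. Nothing is read from these counts, because the rule used the same libraries. The median log2 fold changes of the 28 were -1.36 against wild type and -1.40 against the knockout, beside -0.005 and -0.003 over all tested genes.

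The 1.8-fold limit does not separate a distinct set. Just inside it lay Zm00001d006089, Zm00001d044320 and Zm00001d003041, with a lowest wild-type or knockout value 1.82, 1.83 and 1.85 times the highest overexpression value. Just outside were Zm00001d004022 and Zm00001d052201, both at 1.79, and Zm00001d028803 at 1.77. In all, 182 tested genes (0.793%) were called lower than wild type with an estimated difference of at least 2-fold. Of these, 108 were at 2 CPM or more in wild type, and 25 of the 28 are among the 182. With a mean just under 2 CPM in wild type, Zm00001d039109, Zm00001d029853 and Zm00001d038180 met the other limits at 1.92, 1.88 and 1.86 CPM.

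The next question was whether the knockout left these genes at the wild-type level, as a change in overexpression alone would have it. For 26 of the 28, no difference between knockout and wild type passed edgeR's test, which does not show that the levels were equal. Zm00001d016070 and Zm00001d040534 were called lower in the knockout too, so a description as lowered in overexpression alone does not hold for them. Their knockout means were 0.714 and 0.763 times those of wild type, with log2 fold changes of -0.49 (SE 0.0265) and -0.40 (SE 0.0926). These 2 calls among 28 genes stand beside 8.52% called in either direction and 4.48% called lower over all tested genes, and nothing is read from the count, because the rule limited this ratio. The call of Zm00001d040534 was lost without wild type replicate 1 or without knockout replicate 2, and that of Zm00001d016070 held without any 1 library.

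Across the 28, the ratio of knockout to wild type ran from 0.714 to 1.36 with a median of 0.964, and it lay between 0.9 and 1.1 in 18. The knockout mean was below wild type in 15 genes and above it in 13. The 2 knockout values overlapped with those of wild type in 16 genes, were both lower in 8 and were both higher in 4. The matching shares over all tested genes were not counted, and the rule limited this ratio, so nothing is read from these counts. The highest ratio was that of Zm00001d012221, at 3.07 and 3.63 CPM in the wild-type libraries, 5.28 and 3.83 CPM in the knockout, and 1.38 and 1.17 CPM in overexpression. Its overexpression level was 2.63-fold below wild type and 3.59-fold below the knockout.

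The 8 genes that met the gap but not the knockout limits lay on both sides of the 28. In 4 the knockout was below 0.67 times wild type. Zm00001d044683 was the furthest, at 2.21 and 2.48 CPM in the wild-type libraries, 0.629 and 0.992 CPM in the knockout, and 0.284 and 0.333 CPM in overexpression; the others were Zm00001d010885, Zm00001d028778 and Zm00001d002158. In the other 4 the knockout was above 1.5 times wild type, which put the genotypes in the order overexpression, wild type, knockout. Zm00001d039566 had 120.0 and 118.8 CPM in the wild-type libraries, 196 and 205 CPM in the knockout, and 48.7 CPM in each library of overexpression. Zm00001d002441 had 39.6 and 37.5, 61.4 and 60.7, and 9.91 and 13.9 CPM in the same order, and Zm00001d019469 and Zm00001d003311 were weaker. These comparisons share the wild-type libraries. Of these 8 genes, edgeR's test called Zm00001d044683 lower in the knockout than in wild type, and Zm00001d002441 and Zm00001d039566 higher. In the others no difference between knockout and wild type passed, so their order of genotypes rests on the values alone.

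**Figure D2:**
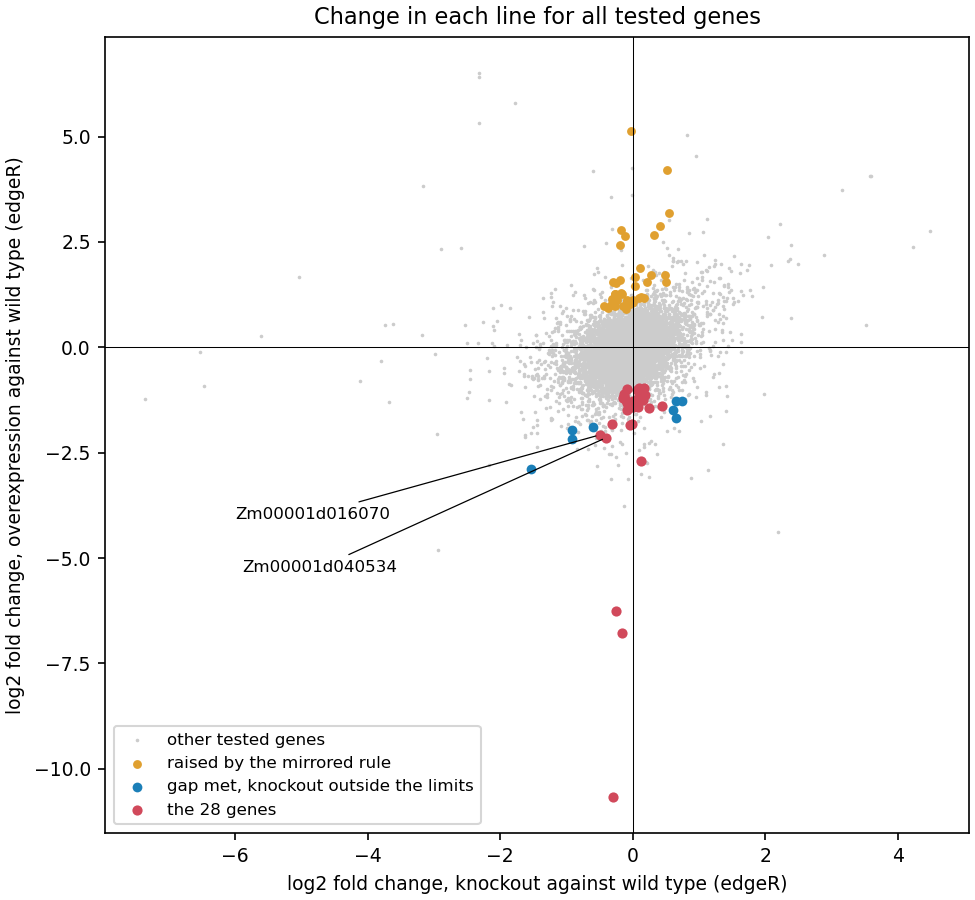
Log2 fold change of overexpression (vertical) and of the knockout (horizontal), each against the same wild-type libraries in edgeR's fit, for all 22947 tested genes. The 28 genes (red) form a column near 0 on the horizontal axis with 3 far below the rest, Zm00001d016070 and Zm00001d040534 lie at its left edge, and the 8 genes outside the knockout limits (blue) lie on either side.

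A mirrored rule asked for overexpression at least 1.8 times above all 4 other libraries and at 2 CPM or more. With the same limits on the ratio of knockout to wild type as for the 28, it gave 43 genes. Their median difference was 2.36-fold, beside 2.60-fold for the 28 lowered genes, and 2 of them exceeded 10-fold, beside 3 of the 28. Between knockout and wild type, 6 of the 43 were called, beside 2 of the 28 and 8.52% of all tested genes. Both rules limited the ratio of knockout to wild type, so nothing is read from these counts. The difference between these shares was not tested.

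No run of neighbouring gene numbers was found among the 28. A run was defined as 3 or more genes, each within 10 gene numbers of the next, and 0 of the 28 had another of the 28 within 10 numbers or even within 20. The closest pair, Zm00001d053767 and Zm00001d053843, lay 76 numbers apart. Within 100 numbers of another of the 28 were 2 genes (7.14%), beside 10.7% of the 19631 Zm00001d genes at 2 CPM or more in wild type; within 200 numbers the shares were 28.6% and 19.3%, and within 500 numbers 35.7% and 40.3%. Distances of 55 and 65 numbers separated Zm00001d024496 and Zm00001d001885 from their nearest raised genes, Zm00001d024441 and Zm00001d001820.

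The shortest stretch that held 4 of the 28 genes ran from Zm00001d001703 to Zm00001d002159, over 456 gene numbers, with Zm00001d001703, Zm00001d001885, Zm00001d002052 and Zm00001d002159. They comprised 14.3% of the 28, where the stretch holds 1.12% of the genes at 2 CPM or more in wild type. It was singled out after the values were seen and carries no test. Some of the other genes there were lower too, among them Zm00001d002158, but lower and higher calls were of similar number. Of 249 other tested genes in the stretch, 38 (15.3%) were called lower in overexpression than wild type and 40 (16.1%) higher, beside 13.9% and 15.3% of all tested genes, and their median log2 fold change was -0.01. By the ratio of mean CPM in wild type to that in overexpression, the 4 genes also differed among themselves. It ran from 130 in Zm00001d001885, which rests on 1 overexpression read, to 2.68 in Zm00001d002052. The shortest range that held 9 of the 28 (32.1%) ran from Zm00001d001703 to Zm00001d007091 and includes these 4 genes. It holds 10.2% of the genes at 2 CPM or more in wild type. This range too was singled out after the values were seen and carries no test. Of its other tested genes, 14.05% were called lower in overexpression than wild type and 15.26% higher.

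Genes directly beside the 28 were called at shares near those of all tested genes. On either side of each gene, the nearest tested gene by number was taken, which gave 56 neighbours chosen without regard to their values. In overexpression against wild type, 10 of them (17.9%) were called lower and 6 (10.7%) higher, beside 13.9% and 15.3% of all tested genes. Their median log2 fold change was -0.03. For Zm00001d029091, with 0 reads in overexpression, the neighbours Zm00001d029087 and Zm00001d029093 had log2 fold changes of 0.17 (SE 0.19) and -0.03 (SE 0.0868), and neither was called. For Zm00001d023952 they were -0.14 (SE 0.18) in Zm00001d023950 and 0.18 (SE 0.15) in Zm00001d023953, also not called. The near absence of transcript in these 2 genes thus did not extend to the next tested gene. Beside Zm00001d001885, Zm00001d001884 was slightly higher, by 0.12 on the log2 scale (SE 0.0448, adjusted p = 0.0325, edgeR), and Zm00001d001887, at -1.09 (SE 0.64) on few reads, did not pass. Zm00001d016070 had a neighbour on each side that was higher in overexpression: Zm00001d016066 by 0.43 on the log2 scale (SE 0.10, adjusted p = 0.00161, edgeR) and Zm00001d016072 by 0.40 (SE 0.13, adjusted p = 0.0179, edgeR).

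**Figure D3:**
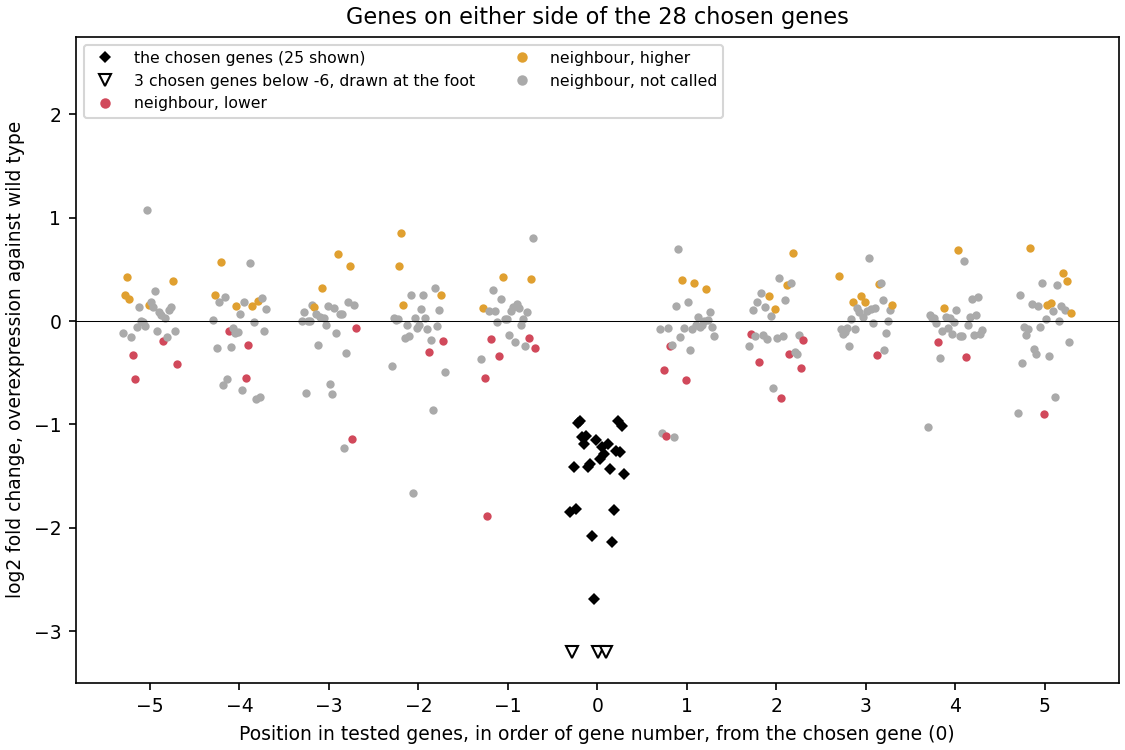
Log2 fold change of overexpression against wild type for the 5 tested genes on either side of each of the 28 genes, in order of gene number; colours give edgeR's call, black diamonds are the chosen genes and open triangles mark 3 chosen genes below the axis. Neighbours scatter around 0 at every position, and the lowest red point beside the chosen genes is Zm00001d002158 at -1.89.

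Beside 3 of the 28 genes, Zm00001d002052, Zm00001d002159 and Zm00001d003041, the nearest tested gene on both sides was called lower. Beside 1, Zm00001d016070, both were called higher. How often this holds over all tested genes was not counted, so nothing is read from these counts. On either side of Zm00001d002052, Zm00001d002051 was lower at -0.55 on the log2 scale (SE 0.0473, adjusted p = 1.01e-11, edgeR), and the fold change of Zm00001d002053 was -0.47 on that scale (SE 0.0824, adjusted p = 2.52e-05, edgeR). Those beside Zm00001d003041 were Zm00001d003040, at -0.17 (SE 0.0586, adjusted p = 0.0223, edgeR), and Zm00001d003044, at -0.24 (SE 0.0909, adjusted p = 0.0393, edgeR). The neighbours of Zm00001d002159 had larger differences. Among the 56 neighbours, 2 were called lower with an estimate of at least 2-fold (3.57%, beside 0.793% of all tested genes). Both lay beside Zm00001d002159. Counts of Zm00001d002158 were 75 and 89 for wild type, 65 and 45 for the knockout, and 22 and 21 for overexpression. Its log2 fold change in overexpression was -1.89 (SE 0.32, adjusted p = 1.5e-05, edgeR). It met the 1.8-fold gap and was left out of the 28 only because its knockout mean, 0.662 times wild type, fell just short of 0.67. Zm00001d002159 itself had 71 and 49 reads, 56 and 42, and 14 and 19 in the same order.

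On the other side, Zm00001d002160 was read 144 and 122 times in wild type, 105 and 102 times in the knockout, and 63 and 56 times in overexpression, with a log2 difference of -1.12 between overexpression and wild type (SE 0.21, adjusted p = 8.62e-05, edgeR). In all 3 genes both overexpression libraries were below all others. Every knockout value was below every wild-type value in Zm00001d002158 and Zm00001d002160, though neither knockout difference passed the test (adjusted p = 0.205 and 0.271, edgeR). The nearest tested gene on each side of these 3 consecutive genes did not pass in overexpression. Zm00001d002157, with 141 and 134 reads in wild type and 119 and 154 in overexpression, differed by 0.02 on the log2 scale (SE 0.17, adjusted p = 0.942, edgeR), and Zm00001d002163 by -0.14 (SE 0.0885, adjusted p = 0.233, edgeR). Zm00001d002161, between them, had 3 reads in wild type replicate 1 and 0 in every other library. Whether Zm00001d002158, Zm00001d002159 and Zm00001d002160 overlap or are near-identical copies was not tested. The use of strand in counting is not stated, so reads of genes that overlap on opposite strands may not have been separated. Reads of near-identical copies may not be separable either, whatever the strand setting. The counts of such neighbours may therefore not be independent. The block at Zm00001d002159 was noticed after the values were seen.

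**Figure D4:**
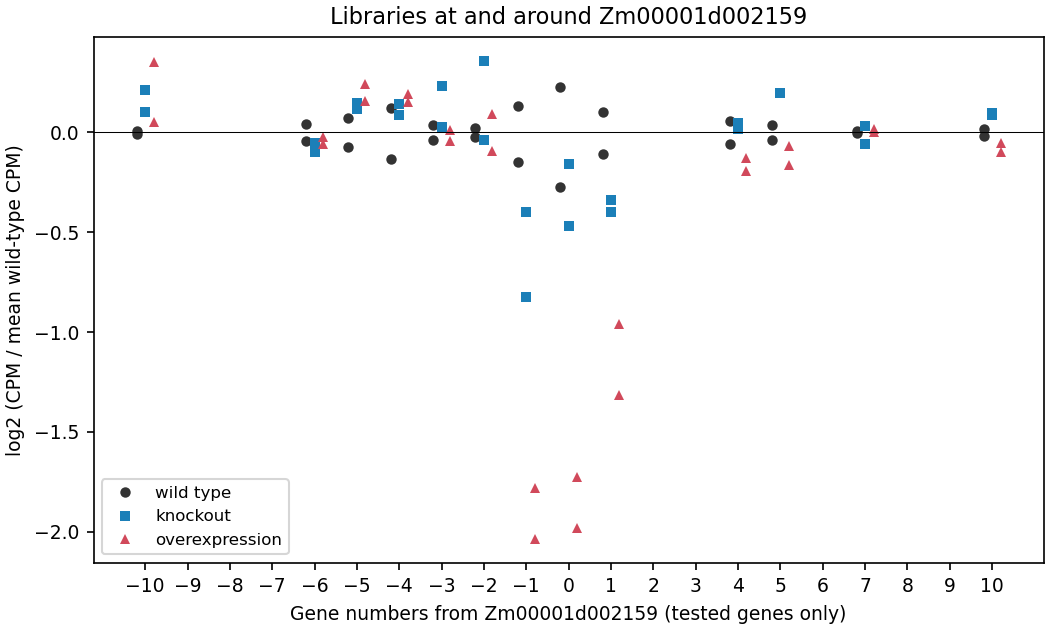
Log2 ratio of each library's CPM to the wild-type mean for the tested genes within 10 gene numbers of Zm00001d002159 (position 0), with 1 symbol per library. Overexpression libraries drop at positions -1, 0 and 1 and lie near the other libraries elsewhere; the knockout libraries lie between wild type and overexpression at positions -1 and 1.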

How the data were processed

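Per the labels' protocols, RNA from maize ears was treated with DNase and prepared for sequencing (NEBNext Ultra II) in 6 libraries. The authors deposited raw read counts per gene, whole numbers with unequal totals. Tools named without roles, per the submitters' processing notes, are HISAT2 2.1.0, HTSeq, StringTie, Trimmomatic 0.35 and edgeR 3.32.1. Nothing used here states the build, the annotation or the strand setting. The number of columns left unused was 0.

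CPM used the column total. Genes were kept by filterByExpr (minimum count 10), scaled by TMM factors (0.991 to 1.01) and tested by the quasi-likelihood F-test of edgeR 4.0.16 in R 4.3.3, with 1 fit of all 6 libraries. P-values were adjusted by Benjamini-Hochberg over 22947 genes and called below 0.05. An SE is the log2 fold change divided by the square root of F. With 2 libraries per genotype the spread rests mostly on all genes (prior 33.2 degrees of freedom against 3 residual). The script was tested on simulated data. The members and lists were chosen with earlier results of these data known. Genes were named by level, size of fall, distance from the limits and replicate ratio; neighbours were added after the values were seen. Alternatives included DESeq2 1.42.0 and limma-voom (limma 3.58.1).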

Additional observations from a re-analysis of the deposited data

How the results depend on the processing

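The number of genes followed the limits of the rule: 109 with a gap of 1.5 times, 16 with 2 times, 6 with 3 times and 12 with at least 5 CPM in wild type. It was 28, and the same genes, with TMM-scaled libraries. Leaving out 1 library gave 35 to 81 genes, highest without overexpression replicate 1 (74) or 2 (81), since 1 overexpression value then had to meet the gap; without wild type replicate 2 and without knockout replicate 2, 1 of the 28 was lost each time. Genes with another within 10 numbers were 4 with a gap of 1.5 times and 0 to 8 with 1 library left out. Limits added after seeing the data gave 2 without limits on the knockout (36 genes), 6 with a gap of 1.5 times and no such limits (118 genes), and, at wider distances, 2 within 100, 8 within 200 and 10 within 500 numbers. Since no run was found, the planned counts of genes inside runs have no value.

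Of 28 genes, 26 to 28 were called lower than wild type, and 26 to 28 lower than the knockout, with 1 library left out; every other setting called 28. Calls were lost by Zm00001d039327 and Zm00001d006089 without overexpression replicate 1, by Zm00001d042602 and Zm00001d034735 without overexpression replicate 2, and by Zm00001d034735 without wild type replicate 1. Genes called between knockout and wild type were 1 to 2. Among the 56 neighbours, 6 higher calls became 3 in DESeq2 and 2 to 6 with 1 library left out (2 without wild type replicate 1 or overexpression replicate 2). Replicate numbers did not pair the libraries (correlations of deviations -0.00862, -0.0139 and 0.00772); with the replicate block the counts were 28, 28, 2, 10 and 6, as without it. Low counts limit the weaker genes, 16 of which lay below 5 CPM.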
